A study of Mus musculus with 8 samples.

Results

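Early lymphoid transcripts were followed in multipotent progenitors (MPPs) of wild-type (WT) mice and of mice carrying the fusion gene NUP98-HOXA10hd (NA). The 9 genes were chosen from a given list of early lymphoid genes: Dntt, Rag1, Rag2, Il7r, Ccr9, Cd27, Cd79a, Cd79b and Ighm. They were chosen with earlier results of these data known, so counts of calls among the 9 are description only. All 9 were found among the 37980 gene rows of the deposited table. The comparison addresses which transcripts of lymphoid priming differ when MPPs carry the fusion.

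The NA mice were NA LSL/+; Vav-Cre animals on the C57BL/6 background, in which the fusion was inserted at the Rosa26 locus behind a removable stop and released by Cre under the blood-cell promoter Vav. In the fusion protein, the homeodomain by which HOXA10 binds DNA follows a piece of NUP98, a component of the nuclear pore. The WT mice were C57BL/6 as well; whether they carried Cre, the ages and sexes of both groups, and the number of animals behind a library are not given in the sources used here. MPPs were sorted from bone marrow as Lin-CD48-ckit+Sca1+CD135+CD150- cells, with 1000 cells per library. There were 4 NA libraries (NA1 to NA4) and 4 WT libraries (WT1 to WT4), and since nothing says that they came from separate animals, p-values measure only the spread between these libraries, which may be technical.

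Lymphoid priming is the low-level transcription of lymphoid genes in progenitors that have not yet lost their other fates. Terminal deoxynucleotidyl transferase, RAG1 and RAG2 act on the antigen receptor genes, in which V, D and J segments are cut, trimmed and joined; interleukin-7 receptor signalling sustains early lymphoid precursors; and the immunoglobulin mu chain with its CD79 partners forms the first receptor of B-lineage cells. In bone marrow these transcripts appear first in a lymphoid-primed fraction of progenitors with high CD135 (Flt3), the marker that the MPP gate also selects. The gate excludes cells with CD48 as well, and how much of this fraction it retains was not measured.

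Values are normalised counts, that is, estimated reads per gene divided by a size factor of the library. Depth was estimated at 3876903 to 4916971 reads per library, 1 read was worth 0.888 to 1.18 normalised counts, and a value of 0 allows up to 3 reads, or 2.66 to 3.54 normalised counts. Such limits account for counting error alone, because reads of amplified cDNA carry no molecular identifiers and are not independent molecules. The fourth library of each group stood apart: only 20 genes in NA4 and 12 in WT4 had at least 3 reads there and none in the other 3 libraries of the group, against 73 to 91 in NA1 to NA3 and 47 to 57 in WT1 to WT3. The fourth libraries were also nearest to a weighted sum of the other 3, with median deviations of 9.51% in NA4 and 6.84% in WT4 against 9.70% to 16.7% for the other 6 libraries. Whether NA4 and WT4 were independent of the other libraries of their group was not tested. If they were not, p-values that include them are too small. Results are therefore given with and without NA4 and WT4. All NA libraries held Y-linked transcripts (Eif2s3y, 516 to 667 normalised counts) and almost no Xist (0.94 to 2.8), and all WT libraries the converse (Xist, 869 to 1285, with Eif2s3y at or below 0.888), so donor sex and genotype cannot be told apart in any comparison. Of the gene loci whose parts form the fusion, Hoxa10 was at 324 ± 32.0 normalised counts in the NA libraries and 139 ± 7.997 in the WT libraries (SD, n = 4 libraries each; limma adjusted p = 2.57e-05), and Nup98 did not pass the test (adjusted p = 0.443). Whether reads of the fusion were counted in these rows was not tested.

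Promoter sequence is shown for the recombination genes, of which Dntt was readily detected and Rag1 and Rag2 were not, and for Cd27, the most abundant of the 9 transcripts. Each window runs from 150 bases before the RefSeq transcription start to 30 bases after it on the coding strand (build GRCm38.p6), and capitals mark E-boxes, the CANNTG sites that E proteins such as the product of Tcf3 can bind.
Dntt, chr19:41029125-41029304, plus strand: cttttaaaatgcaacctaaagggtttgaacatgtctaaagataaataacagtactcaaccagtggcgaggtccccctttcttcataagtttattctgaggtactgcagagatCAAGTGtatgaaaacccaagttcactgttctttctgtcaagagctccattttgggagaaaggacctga
Rag1, chr2:101649503-101649682, minus strand: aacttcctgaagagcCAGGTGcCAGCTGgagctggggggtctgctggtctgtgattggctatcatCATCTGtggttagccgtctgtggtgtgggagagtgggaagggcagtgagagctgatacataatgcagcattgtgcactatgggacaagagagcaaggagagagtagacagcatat
Rag2, chr2:101624562-101624741, plus strand: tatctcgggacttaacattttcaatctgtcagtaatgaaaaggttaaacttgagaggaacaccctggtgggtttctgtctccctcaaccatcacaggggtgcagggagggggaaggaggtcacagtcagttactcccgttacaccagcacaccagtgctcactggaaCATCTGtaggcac
Cd27, chr6:125236998-125237177, minus strand: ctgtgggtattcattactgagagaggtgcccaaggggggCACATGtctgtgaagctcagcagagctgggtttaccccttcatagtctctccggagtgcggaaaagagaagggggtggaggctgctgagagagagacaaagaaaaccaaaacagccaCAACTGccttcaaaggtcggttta

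The Dntt window held 1 E-box, whose first base lay at -38 from the start, the Rag1 window 3, the Rag2 window 1 and the Cd27 window 2. Of 32851 RefSeq promoter windows of the same length, 54.1% held at least 1. Both strands were also searched for the Ets core GGAA (in 86.1% of all windows), the Ikaros core TGGGAA, which contains the Ets core (15.5%), the Runx core TGTGGT (10.1%), the PBX-HOX site TGATNNAT (4.85%) and the TATA box TATAAA (8.37%). The Dntt window held none of these 5 motifs. The Rag1 window held 2 Ets cores, 1 Ikaros core, 2 Runx cores and 1 PBX-HOX site, the Rag2 window 3 Ets cores, and the Cd27 window 1 Ets core. A PBX-HOX site also occurred in the window of Ccr9, and in none of the other 5 windows. The promoter table matched 7 of the 9 genes, and Cd79b and Ighm had no entry. A match describes these letters only, and binding was not measured.

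Of the 9 transcripts, 4 passed the filter on low values (at least 10 normalised counts in at least 4 libraries) and entered the test: Dntt, Cd27, Cd79b and Ighm. Of these, 3 were lower in NA MPPs (Dntt, Ighm and Cd27), none was higher, and Cd79b did not pass the threshold. The test was limma on log2(normalised count + 1) over 11451 genes, with Benjamini-Hochberg adjustment and a threshold of 0.05. Of all genes tested, 17.9% passed in either direction, 7.87% lower and 10.1% higher in NA MPPs. Without NA4 and WT4 2 of the 4, Dntt and Ighm, remained lower, where 4.63% of 11117 genes passed, 1.3% lower and 3.33% higher. Without the filter the same 2 of the 9 were lower, where 8.89% of 17710 genes passed, 3.98% lower and 4.91% higher. In sorted bulk samples, fewer cells that transcribe a gene and less RNA per cell cannot be told apart.

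**Figure D1:**
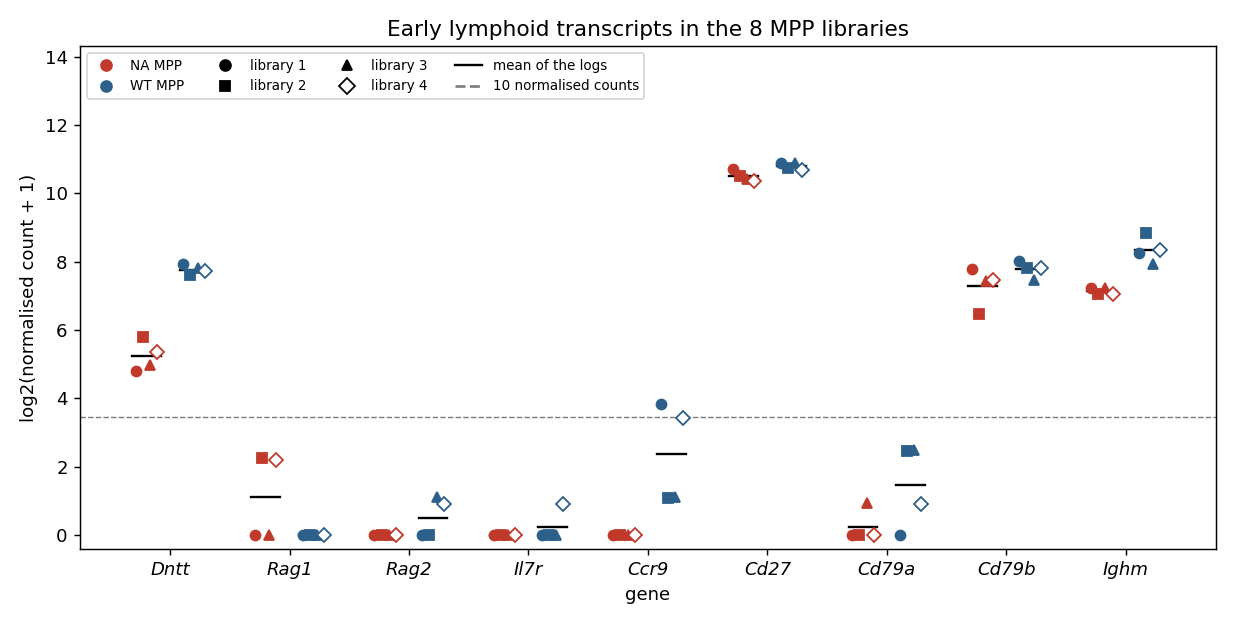
Normalised counts of the 9 transcripts in each library, on a log2(normalised count + 1) axis. Red symbols are NA libraries, blue symbols WT libraries, open diamonds the fourth library of each group, short lines the mean of the log values, and the dashed line marks 10 normalised counts. Dntt and Ighm separate the groups, Cd27 and Cd79b overlap, and Rag1, Rag2, Il7r and Cd79a lie below the dashed line in all 8 libraries, with Ccr9 above it in WT1 only.

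Among the recombination genes, Dntt was the transcript with the largest difference of the 4 tested. Dntt (ENSMUSG00000025014, GRCm38 chr19:41029275-41059525, plus strand) encodes terminal deoxynucleotidyl transferase, which adds bases without a template at the joints of V, D and J segments. It was at 27.1, 54.5, 30.5 and 40.2 normalised counts in NA1 to NA4 and at 242, 194, 223 and 210 in WT1 to WT4. The groups did not overlap: the highest NA library, NA2, lay far below the lowest WT library, WT2. The means were 38.1 ± 12.3 in NA and 217 ± 20.6 in WT (SD, n = 4 each), 5.71-fold higher in WT. On the log2 scale Dntt fell by 2.53 in NA MPPs (SE 0.223, 95% interval -3.01 to -2.05, limma adjusted p = 5.47e-06). The difference was as large without NA4 and WT4 (-2.59, adjusted p = 0.000318). Leaving out each library in turn gave -2.72 to -2.39. The promoter window printed above for Dntt is thus that of a transcript present in every library of both groups, with 1031 estimated reads in all.

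The RAG pair was at the edge of detection in MPPs of both genotypes. RAG1 and RAG2 together form the enzyme that cuts at recombination signal sequences. Rag1 (ENSMUSG00000061311, chr2:101638282-101649501, minus strand) held 7 estimated reads in all, 4 in NA2 (3.76 normalised counts) and 3 in NA4 (3.54), and was at 0 in NA1, NA3 and all WT libraries. Rag2 (ENSMUSG00000032864, chr2:101624718-101632529, plus strand) held 2 reads, 1 in WT3 (1.14) and 1 in WT4 (0.888), and was at 0 elsewhere. Both groups thus lay at or under the floor of 3 reads on average, and no fold is given for either gene. Both overlap B230118H07Rik, Rag1 by 80 exonic bases on the same strand and Rag2 by 208 on the opposite strand. B230118H07Rik was at 229 to 364 normalised counts and strand use is not stated, so these few reads are uncertain.

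The other genes of recombination and end joining moved in both directions. Of 20 listed genes, Dntt and the RAG pair included, 17 were tested, 2 were higher and 4 lower in NA MPPs, with a median log2 difference of 0.01 and a mean of -0.10. Across all 11451 genes 10.1% were higher and 7.87% lower, and the median was -0.01. Hmgb1 and Hmgb2, DNA-bending proteins that assist RAG cutting besides their general role in chromatin, were the 2 that rose. Hmgb1 was at 3340, 2899, 3022 and 3073 normalised counts in NA and at 1174, 1321, 1502 and 1412 in WT (log2 difference 1.19, SE 0.0871, adjusted p = 8.22e-07). Hmgb2 was at 714 ± 40.5 against 385 ± 30.6 (SD, n = 4 each, log2 difference 0.89, adjusted p = 3.96e-05). Both were also higher without NA4 and WT4 (adjusted p = 5.69e-05 and 0.00197). Besides Dntt, the genes that fell were Prkdc, the catalytic subunit of the DNA-dependent kinase of end joining (53.6 ± 21.0 against 101 ± 16.0, adjusted p = 0.0205), Poll, a gap-filling polymerase (adjusted p = 0.0480), and Trp53bp1, a protein of double-strand breaks (adjusted p = 0.00801). None of these 3 passed without NA4 and WT4 (adjusted p = 0.116, 0.283 and 0.0506). Xrcc6, the Ku70 end-binding subunit, was the tested gene nearest to 0 (464 ± 64.9 against 460 ± 38.2, adjusted p = 0.967).

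Il7r encodes the alpha chain of the interleukin-7 receptor, and its transcript was not detectable at this depth. Il7r (ENSMUSG00000003882, chr15:9505788-9530176, minus strand) held 1 estimated read, in WT4 (0.888 normalised counts), and was at 0 in the other 7 libraries. Its signalling partners were measured: of the 16 listed genes of the pathway 15 were tested, and 2 were higher and 1 lower in NA MPPs. The shares of all genes were 10.1% and 7.87%. The median log2 difference of the list was 0.14. Mcl1, a survival factor of the Bcl2 family, was at 4800 ± 605 against 2487 ± 562 (log2 difference 0.97, adjusted p = 0.000430) and was also higher without NA4 and WT4 (adjusted p = 0.00657). Stat5a, a transcription factor that the receptor activates, was at 381 ± 23.5 against 296 ± 35.5 (log2 difference 0.37, adjusted p = 0.0407). Jak3, the kinase bound to the shared gamma chain, was at 159 ± 38.0 against 249 ± 37.4 (-0.67, adjusted p = 0.0211). Neither Stat5a nor Jak3 passed without NA4 and WT4 (adjusted p = 0.254 and 0.157). Stat5b differed least (548 ± 38.4 against 549 ± 57.9).

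Ccr9 was at the edge of detection, and only single reads in WT2 and WT3 kept its groups from overlapping. Ccr9 (ENSMUSG00000029530, chr9:123678439-123784330, plus strand) encodes the receptor of the chemokine CCL25, which guides progenitors to the thymus. It was at 0 in all 4 NA libraries and at 13.3, 1.13, 1.14 and 9.77 normalised counts in WT1 to WT4, or 15, 1, 1 and 11 estimated reads. Most of the 28 reads were thus in WT1 and WT4, and WT2 and WT3 held a single read each. The WT mean was 6.34 ± 6.18 (SD, n = 4), at least 2.12-fold above a floor of 3 reads per NA library, under which WT2 and WT3 themselves lay. Without WT1 this limit was 1.34-fold and without WT4 1.74-fold, an alternative chosen after seeing the data. Ccr9 lay under the filter and was not tested; in a limma fit without the filter, which covered 17710 genes, its adjusted p was 0.0565. Its gene model shares 1932 exonic bases with the opposite-strand transcript AC165425.1, which held at most 1.78 normalised counts in any library.

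The list of chemokine receptors and homing molecules had 9 genes, Ccr9 among them, of which 5 were tested. In NA MPPs 1 was higher and 1 lower, against 10.1% and 7.87% of all genes. The median log2 difference was -0.05 and the mean 0.24. Cxcr4, the receptor that holds progenitors in the marrow, was at 256, 179, 184 and 208 normalised counts in NA and at 64.8, 54.4, 106 and 70.1 in WT (log2 difference 1.501, SE 0.210, adjusted p = 0.000298; without NA4 and WT4 1.48, adjusted p = 0.00880). Itga4, the alpha chain of VLA-4, was at 491 ± 40.3 against 640 ± 53.6 (-0.38, adjusted p = 0.0188), and did not pass without NA4 and WT4 (adjusted p = 0.202). Itgb7 differed least of the 5 (77.1 ± 17.4 against 83.6 ± 30.02), and Ccr6 was at 0 in all 8 libraries.

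The B cell receptor genes split into an Ighm transcript that differed between the groups, a Cd79b transcript whose groups overlapped, and a Cd79a transcript close to the floor. Ighm (ENSMUSG00000076617, chr12:113418558-113422730, minus strand) is the constant region gene of the immunoglobulin mu heavy chain. It was at 150, 133, 148 and 131 normalised counts in NA1 to NA4 and at 301, 460, 244 and 320 in WT1 to WT4. Every WT library lay above every NA library, and the NA values lay closer together than the WT values, of which WT2 was the highest. The means were 140 ± 9.996 and 331 ± 91.7 (SD, n = 4 each), 2.36-fold higher in WT, and on the log2 scale Ighm fell by 1.20 in NA MPPs (SE 0.172, 95% interval -1.56 to -0.83, limma adjusted p = 0.000383). Without NA4 and WT4 the difference was -1.17 (adjusted p = 0.00988), and leaving out each library gave -1.33 to -1.03. Of the 4 tested transcripts, Dntt and Ighm had groups that did not overlap, which was so for 10.5% of all tested genes in that direction.

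The Ighm reads came with almost no reads in the named rows of variable segments. Segments were found by gene name, so any segment among the rows without a name was not counted. The 27 Igh V rows held 2 estimated reads in NA2, 3 in NA4, 1 in WT4 and none in the other 5 libraries. The Igh D row, the 4 Igh J rows and the 5 rows of other Igh constant regions were at 0 in all 8 libraries. The 65 kappa light chain rows held 2 to 24 reads per library, with the highest count in NA2, the 4 lambda rows 0 to 5, and the 137 T cell receptor rows 0 to 8. Short J and D segments give few reads at any level and reads of near-identical V segments can be split between rows, so these counts limit only what was detectable.

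Cd79b (ENSMUSG00000040592, chr11:106311341-106314762, minus strand) encodes the beta signalling chain of the B cell receptor. It was at 219, 87.4, 171 and 174 normalised counts in NA1 to NA4 and at 256, 222, 176 and 226 in WT1 to WT4. The groups overlapped, since NA1 lay above WT3, and NA2 stood below all other libraries. The means were 163 ± 55.0 and 220 ± 32.7 (SD, n = 4 each), with a log2 difference of -0.49 (SE 0.232, adjusted p = 0.157) and a 95% interval from -0.99 to 0.003. Without NA2 the difference was -0.22 (adjusted p = 0.395) and without NA1 -0.66 (adjusted p = 0.0605). The interval thus reaches 0 at its upper end.

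Cd79a (ENSMUSG00000003379, chr7:24897381-24902197, plus strand) encodes the alpha chain that pairs with the product of Cd79b. It held 10 estimated reads in all, with 0.923 normalised counts in NA3, 4.53 in WT2, 4.55 in WT3, 0.888 in WT4 and 0 in the other 4 libraries. Both group means lay under the floor of 3 reads, and no fold is given. In the fit without the filter its adjusted p was 0.234. The Cd79b level was therefore not accompanied by a like level of its partner in either genotype: per kilobase of exon, Cd79b reached 114 ± 38.4 normalised counts in NA and 154 ± 22.8 in WT, while no library exceeded 3.13 for Cd79a.

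Of the 16 listed genes of the pre-B and B cell receptor, which include these 3, 8 were tested. In NA MPPs 1 was higher and 2 lower, against 10.1% and 7.87% of all genes, with a median log2 difference of -0.33. Syk, the kinase that binds the phosphorylated CD79 chains, was at 284, 351, 291 and 304 in NA and at 517, 530, 385 and 470 in WT (-0.62, adjusted p = 0.00390). Lyn, the kinase that phosphorylates them, was at 358 ± 24.6 against 250 ± 60.5 (log2 difference 0.55, adjusted p = 0.0330). Neither Syk nor Lyn passed without NA4 and WT4 (adjusted p = 0.0535 and 0.150). Blnk, the adaptor downstream of Syk, was nearest to 0 and varied widely within both groups (11.3 to 73.9 in NA, 10.2 to 55.8 in WT). The surrogate light chain genes Vpreb2 and Igll1 were at 0 in all libraries, as was Cd22. Markers of mature B cells showed no call: 2 of the 7 measured markers were tested and neither passed, their summed level was 122 to 202 normalised counts in NA and 137 to 188 in WT, and Ms4a1, Cd22 and Fcmr were at 0 throughout.

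Cd27 was by far the most abundant of the 9 transcripts and had the smallest difference of those that passed. Cd27 (ENSMUSG00000030336, chr6:125232622-125237010, minus strand) encodes a receptor of the TNF receptor family that is found on progenitors with lymphoid potential as well as on T cells. It was at 1678, 1455, 1358 and 1325 normalised counts in NA1 to NA4 and at 1890, 1726, 1884 and 1657 in WT1 to WT4. The groups overlapped in 1 place: NA1 lay above WT4. The means were 1454 ± 159 and 1789 ± 117 (SD, n = 4 each), and the log2 difference was -0.30 (SE 0.0899, 95% interval -0.50 to -0.11, limma adjusted p = 0.0320). This call was not stable: the adjusted p was 0.140 without NA4 and WT4 and 0.0661 without the filter, and it rose above the threshold when NA2, NA3, NA4, WT1 or WT3 was left out (up to 0.101), while the difference stayed between -0.37 and -0.26. Vamp1, on the opposite strand, shares no exonic base with Cd27 and was at 79.9 to 114 normalised counts in NA and 147 to 186 in WT.

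**Figure D2:**
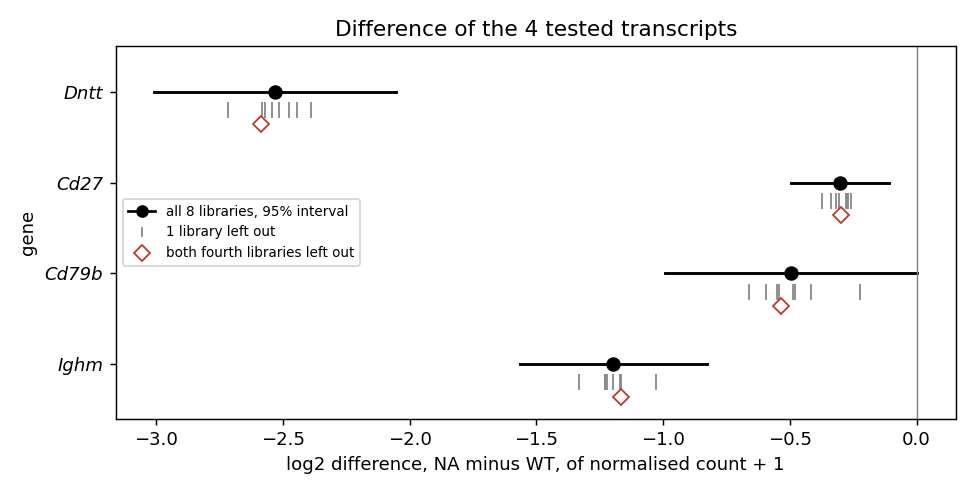
Log2 difference, NA minus WT, of normalised count + 1 for the 4 tested transcripts. Black points with bars are the fit on all 8 libraries with its 95% interval, grey ticks the fits with 1 library left out, and red diamonds the fit without NA4 and WT4. Dntt at -2.53 and Ighm at -1.20 stay far from 0 in every fit, Cd27 lies between -0.37 and -0.26 with 1 library left out but loses its call in 5 of those 8 fits and without NA4 and WT4, and the interval of Cd79b reaches 0.

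Of 13 listed TNF receptor family genes of lymphocytes and their partners, Cd27 among them, 10 were tested. In NA MPPs 2 were higher and 1, Cd27 itself, was lower, against 10.1% and 7.87% of all genes (median log2 difference -0.03, mean 0.10). The higher genes were Tnfrsf18, encoding GITR (326 ± 58.0 against 214 ± 38.0, log2 difference 0.60, adjusted p = 0.0163), and Tnfrsf13c, encoding the BAFF receptor (79.4 ± 11.7 against 50.4 ± 3.86, log2 difference 0.64, adjusted p = 0.0476). Neither passed without NA4 and WT4 (adjusted p = 0.157 and 0.209). Traf3, an adaptor of these receptors, was nearest to 0. Cd70, the ligand of CD27, was at 0 in all 8 libraries, as was Tnfrsf9.

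Levels of different genes were compared per kilobase of exon. In WT, Cd27 stood first at 769 ± 50.1 normalised counts per kilobase, followed by Ighm at 176 ± 48.6 and Cd79b at 154 ± 22.8, whose ranges overlapped, and by Dntt at 94.8 ± 8.97 (SD, n = 4 each). In NA the order was Cd27 at 625 ± 68.4, Cd79b at 114 ± 38.4, Ighm at 74.5 ± 5.30 and Dntt at 16.6 ± 5.37, and the ranges of Cd79b and Ighm again overlapped. Over all 8 libraries these levels exceeded those of 97.9% of the tested genes for Cd27, 85.3% for Cd79b, 84.0% for Ighm and 64.4% for Dntt. The 5 other transcripts, with at most 28 reads each, all ranked below Dntt. Summed over the 9 genes, normalised counts were 1674 to 2075 in NA and 2425 to 2702 in WT, and Cd27 made up 79.2% to 84.0% of the NA sums and 66.2% to 74.4% of the WT sums.

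Within a group the 4 transcripts did not rank the libraries alike. NA2 had the highest Dntt of the NA libraries and the lowest Cd79b. WT2 had the highest Ighm of all 8 libraries and the lowest Dntt of the WT libraries. Over all 8 libraries, Pearson's r of the log2 values was 0.87 between Dntt and Ighm, 0.76 between Dntt and Cd27, 0.71 between Cd27 and Ighm, 0.61 between Cd79b and Ighm, 0.53 between Cd27 and Cd79b and 0.40 between Dntt and Cd79b. These values describe 8 libraries that share the group difference and their depth, and carry no test.

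The genes whose pattern over the 8 libraries was most like that of each tested transcript were taken from the 9000 genes whose mean over the libraries reached 50 normalised counts. For Dntt they were Elmo2 (r = 0.981), Sept1 (0.980) and Tcn2 (0.980), each lower in NA MPPs (157 against 280, 32.4 against 67.7 and 168 against 263 normalised counts on average). For Ighm they were Ppp2r1a (r = 0.993), Ifi27 (0.987) and Trex1 (0.981), which were also lower (817 against 1069, 638 against 875 and 142 against 220). For Cd27 they were Zfp420 (r = 0.962), Mrpl34 (0.959) and Psmb10 (0.959), of which Mrpl34 alone passed the test (adjusted p = 0.0161). For Cd79b they were Trub2 (r = 0.975), Invs (0.966) and Cep95 (0.962), none of which passed. No gene was among the nearest of more than 1 transcript. Since the genes were chosen by their likeness over both groups, a difference in the same direction follows largely from the choice.

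Transcription factors that act in early lymphoid development moved in both directions. Of 20 listed factors 13 were tested, 4 were higher and 1 lower in NA MPPs, against 10.1% and 7.87% of all genes, with a median log2 difference of 0.15. Without NA4, or without NA4 and WT4, 2 were higher and 1 lower. Tcf3, the gene of the E proteins E12 and E47, was at 288, 236, 260 and 223 normalised counts in NA and at 99.4, 174, 120 and 115 in WT (log2 difference 1.005, SE 0.175, adjusted p = 0.00156). Genes of E protein inhibitors were higher as well: Id2 was at 51.2 ± 3.13 against 23.8 ± 7.04 (log2 difference 1.12, adjusted p = 0.0174), and Id3 at 70.0, 63.9, 125 and 67.3 in NA against 0, 41.9, 12.5 and 13.3 in WT (3.05, SE 0.811, adjusted p = 0.0187). WT1 was at 0 for Id3, and the difference was 1.97 without WT1, 3.78 without WT2 and between these values without each other library. The Id3 call was lost without NA4 alone (adjusted p = 0.0511). Mef2c, a factor of lymphoid-primed progenitors, was at 1001 ± 91.9 against 709 ± 22.7 (log2 difference 0.49, adjusted p = 0.00222).

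The factor that fell was Satb1, a chromatin organiser of lymphoid progenitors (268, 253, 280 and 302 against 412, 489, 365 and 439, log2 difference -0.62, adjusted p = 0.00287). Tcf3, Mef2c and Satb1 also passed without NA4 and WT4 (adjusted p = 0.0213, 0.0348 and 0.0347), and Id2 and Id3 did not (0.130 and 0.0727). Ikzf2 was nearest to 0 (495 ± 43.7 against 468 ± 48.5). The B-lineage factors Pax5 and Pou2af1, and Ikzf3, were at 0 in all 8 libraries.

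Of 19 listed genes of lymphoid-primed progenitors, 18 were tested, and 3 were higher and 2 lower in NA MPPs. Of all genes tested, 10.1% were higher and 7.87% lower. The list had a median log2 difference of -0.10 and a mean of 0.02. The higher genes were Rgs1, a regulator of G protein signalling (9965 ± 1377 against 3996 ± 1784, log2 difference 1.44, adjusted p = 0.00219), Tcf4, the E protein E2-2 (755 ± 26.2 against 473 ± 31.1, 0.67, adjusted p = 0.000226), and Cd24a, the heat stable antigen (4089 ± 259 against 2592 ± 307, 0.66, adjusted p = 0.000244). The lower genes were Wfdc17 (181 ± 41.1 against 332 ± 16.7, -0.90, adjusted p = 0.00169) and Satb1, described above. All 5 passed without NA4 and WT4.

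Over the 7 lists together, 101 genes besides the 9 transcripts were listed and 79 were tested. Of these, 15 (19.0%) were higher and 8 (10.1%) lower in NA MPPs, against 10.1% and 7.87% of all genes, with a median log2 difference of 0.08. Dividing by the total count instead of the size factors gave 12 higher and 11 lower. Without NA4 and WT4 9 were higher and 2 lower, and leaving out NA4 alone gave 9 higher and 4 lower, and leaving out WT4 alone gave 10 higher and 5 lower. The calls of Prkdc, Poll, Jak3, Stat5a, Lyn, Id2, Id3, Itga4, Tnfrsf13c and Tnfrsf18 were lost without NA4, and all of these but Id3 were also lost without at least 1 other library. Dntt lay farther below 0 than every other tested gene of the 7 lists, followed by Ighm.

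**Figure D3:**
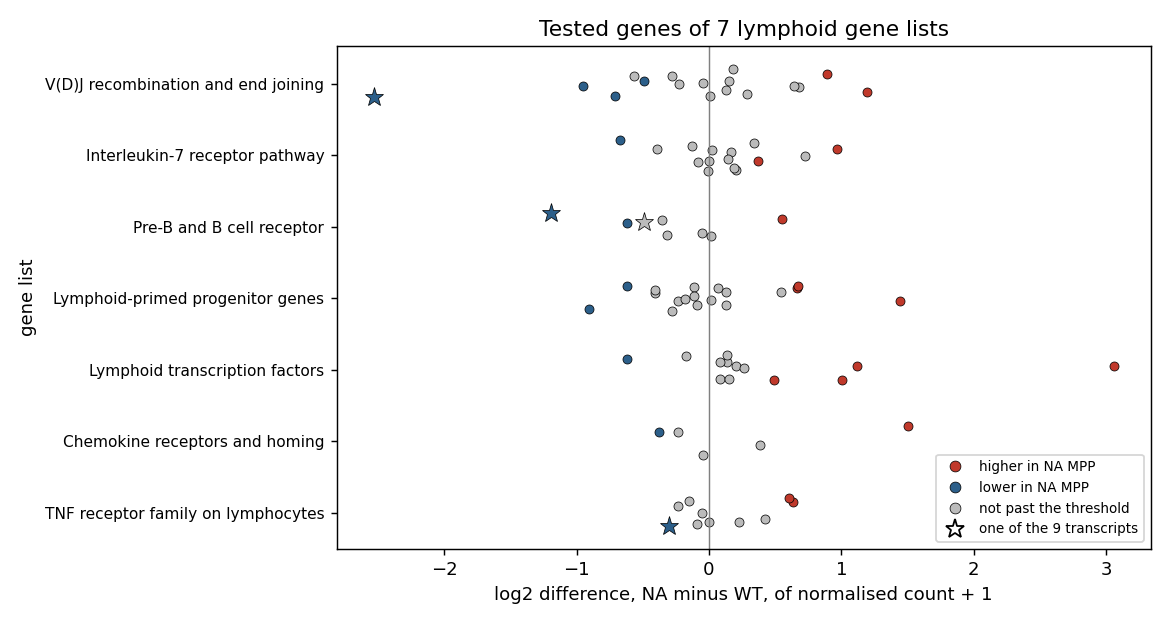
Log2 difference, NA minus WT, of normalised count + 1 for every tested gene of the 7 lymphoid gene lists, 1 row per list. Red points passed the test as higher in NA MPPs, blue points as lower, and grey points did not pass; stars are Dntt, Ighm, Cd79b and Cd27. The called genes lie on both sides of 0 in every list, and Dntt at -2.53 and Ighm at -1.20 are the leftmost points.

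The gate and other cell types were checked by their markers. Of the sorting markers, Flt3 (the CD135 gene, 1442 ± 45.4 against 1375 ± 68.0, adjusted p = 0.554), Kit (adjusted p = 0.169) and Slamf1 (the CD150 gene, adjusted p = 0.570) did not pass, and neither did Cd34 (adjusted p = 0.359). Ly6a, the Sca1 gene, was lower in NA MPPs (1277 ± 88.5 against 1548 ± 63.3, log2 difference -0.28, adjusted p = 0.0257). Cd48, whose product the gate excludes, was at 14.0, 12.2, 22.2 and 22.4 normalised counts in NA and at 46.2, 83.8, 34.2 and 60.4 in WT (-1.58, adjusted p = 0.00711). Neither Ly6a nor Cd48 passed without NA4 and WT4 (adjusted p = 0.160 and 0.0656). Ighm was highest and Cd48 was highest in the same library, WT2, which had the lowest Dntt of the WT libraries.

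Markers of long-term stem cells, all 8 tested, were higher for Hlf and Procr and lower for Tek, with summed levels of 5384 to 6279 normalised counts in NA and 3712 to 3763 in WT. Of 11 T cell markers 3 were tested and Lck was lower; the sums were 132 to 239 and 213 to 315, and Cd3e, Cd3d, Cd3g, Cd8a, Trac and Cd2 were at 0 in all libraries. Of 8 plasmacytoid dendritic cell markers 4 were tested, Tcf4 was higher and Irf8 lower (sums 822 to 869 and 580 to 618), and Klk1 and Cox6a2 were at 0. Of 7 plasma cell markers 2 were tested and Sdc1 was lower (76.6 to 124 and 123 to 190). Of 8 markers of NK and innate lymphoid cells 2 were tested and none passed (154 to 171 and 122 to 151), with Ncr1, Gzma and Il2rb at 0.

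Of 11 neutrophil and monocyte markers 6 were tested, Mpo and Prtn3 were lower (sums 3146 to 3384 and 3589 to 4663), and Elane was at 0. Of 7 erythroid markers 1 was tested and did not pass (141 to 187 and 232 to 301), with Alas2 at 0, and of 7 megakaryocyte markers 6 were tested and none passed (2795 to 3089 and 2616 to 2771). The sums of the stem cell, plasmacytoid dendritic cell, NK and innate lymphoid, and megakaryocyte lists were thus higher in every NA library than in any WT library, and those of the neutrophil and monocyte and the erythroid lists lower. Of the called markers, Hlf, Tek and Tcf4 also passed without NA4 and WT4. Procr, Lck, Irf8, Sdc1, Mpo and Prtn3 did not (limma adjusted p = 0.0759, 0.241, 0.182, 0.0985, 0.135 and 0.0867). With NA4 and WT4 included, 10.1% of all tested genes were higher and 7.87% lower in NA MPPs. Whether any of the listed cell types had a part in the Dntt, Ighm and Cd27 differences was not tested.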

How the data were processed

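RNA of 1000 sorted MPPs per library was converted to cDNA, amplified, made into Nextera XT libraries and sequenced on a NextSeq 500. Per the submitters' processing notes and methods, the authors used bcl2fastq, RSEM, DESeq2 and mm10; versions and strand use are not given in the sources used here. The deposited values are a normalised signal, although the table is named as raw counts: RSEM gene counts already scaled by a size factor. Between 98.5% and 99.1% of a library's low values were multiples of 1 unit (tolerance 0.1 read), which gave estimated reads for depth and floors only. A planned count test (edgeR or DESeq2) was not run, because the values had been scaled and some fractional assignments lay below 1 read.

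Symbols, exons and coordinates came from GENCODE M21 (GRCm38), which named 32916 of 37980 rows. Rows without a name held 0.779% of the summed values. Promoter sequence came from RefSeq (GRCm38.p6). The NA and WT libraries were compared on log2(value + 1) by limma 3.58.1 (R 4.3.3) with a mean-variance trend, without covariates, for genes with at least 10 in at least 4 of 8 libraries. Fold changes on this scale understate changes of low genes. The p-values were adjusted after Benjamini-Hochberg for all genes tested, with a threshold of 0.05. The fit was tested on simulated data first. Means are given ± SD over 4 libraries.

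The members and lists were chosen with earlier results of these data known. Named genes were the 9 members, from each list up to 4 called genes with the largest differences and the 1 nearest 0, the genes of the sorting markers, Cd34, Nup98, Hoxa10, and the 3 genes most like each tested member. Poll, Trp53bp1, Mef2c, the called cell type markers, genes at 0 and overlapping or sex-linked genes were named after their values were seen. Ighd was not analysed here, and 2 genes of the planned lists are not reported here. Other scalings, pseudocounts, filters, variance models, covariates and sets of libraries were tried as alternatives.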

Additional observations from a re-analysis of the deposited data

Results flagged for a closer look

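Within each group of 4 libraries, the highest or lowest value was marked where its gap to the next exceeded Dixon's critical share of the range. Of 105 groups of values examined, 7 were marked, where chance gives about 5.25 (1 in 20). None was a value of the 9 transcripts. In NA libraries, Xrcc6 was at 561.36 normalised counts in NA3 against 423.8 to 438.18 in the other 3, Id3 at 124.64 in NA3 against 63.92 to 70.011, and Sept1 at 41.36 in NA2 against 28.622 to 30.708. In WT libraries, Tcf4 was at 426.94 in WT2 against 482.74 to 492.71, Itgb7 at 38.71 in WT3 against 95.883 to 100.32, and Slamf1 at 30.576 in WT2 against 16.868 to 18.217. The estimated depth of NA4 was 3887848 reads, against 4909407 to 4916971 in the other NA libraries.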

How the results depend on the processing

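Dntt and Ighm stayed lower and past the threshold under all alternatives run, with log2 differences of -2.72 to -2.39 and -1.33 to -1.03, and Cd79b passed under none. Cd27 lost its call without the filter (-0.30, adjusted p = 0.0661), without the variance trend (-0.30, adjusted p = 0.117) and without NA4 and WT4 (-0.30, adjusted p = 0.140). With 1 library left out, Cd27 ranged from -0.37 to -0.26, and the number of lower transcripts from 2 to 3. Other list genes lower in NA numbered 4 to 9 with 1 library left out, 5 without the variance trend and 2 without NA4 and WT4, where fewer samples entered. Those higher numbered 9 to 15 with 1 library left out and 9 without NA4 and WT4. Some genes that were not called changed sign: Blnk (-0.049 by total count, -0.11 with depth class, -0.47 to 0.47 with 1 library left out), Itgb7 (0.026 without NA4 and WT4, -0.38 to 0.11), Slamf1 (-1.09 to 0.034), Stat5b (-0.0033 by TMM, -0.069 by total count, -0.0057 by upper quartile, -1.24e-06 with a pseudocount of 5, -0.061 to 0.053), Traf3 (0.042 with depth class, -0.094 to 0.16) and Xrcc6 (-0.060 by total count, -0.085 to 0.054). The cause was not tested. Whether the replicate numbers pair the libraries is not stated, and correlations among 4 libraries per group cannot decide it. Deviations of same-numbered libraries from their group means correlated at 0.087, 0.027, 0.013 and 0.158. NA1 and NA4 correlated best with the library of their own number, and NA4 with WT4 was the highest of all pairs. NA2 correlated best with WT4 (0.053) and NA3 with WT2 (0.101). With the replicate number as a block 3 transcripts were lower (adjusted p of Dntt 9.38e-05, Ighm 0.00136, Cd27 0.0251), and of the named genes Tnfrsf13c alone changed its call (adjusted p = 0.0753). The edgeR and DESeq2 alternatives were not run. Depth limits Rag1, Rag2, Il7r, Cd79a and Ccr9 to values and floors.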
